A study of Haemaphysalis flava with 2 samples.

Results

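The genes described here are 99 of the 65535 unigenes (assembled transcripts or pieces of transcripts) measured in midguts of Haemaphysalis flava, a hard tick. They are the unigenes whose best protein match in Nr is described as an enzyme or carrier of glutathione or thioredoxin metabolism, a superoxide dismutase, a catalase, a peroxiredoxin, a selenoprotein, a glutaredoxin or a peroxinectin. Fully engorged ticks (FE) were compared with partially engorged ticks (PE), with 1 library of polyadenylated RNA per state. Of 60 dissected midguts 30 came from each state, and the sources used here do not give the number pooled into a library. No strain, sex, age, host or feeding time is given for either group in the labels used here. Since each state has 1 library, the differences below were not checked in replicates, and the variation between ticks is unknown.

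Glutathione is a small thiol that cells use to take up electrophiles and to reduce peroxides. It is made from glutamate, cysteine and glycine, spent by glutathione peroxidases and glutathione S-transferases, and broken down outside the cell by gamma-glutamyltransferase. Superoxide dismutases, catalase, peroxiredoxins and thioredoxins deal with superoxide and hydrogen peroxide by other routes. The tick midgut takes up and digests hemoglobin inside its cells, which frees heme, a compound that promotes oxidation.

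In the FE library, most Cu/Zn superoxide dismutase unigenes and a catalase stood higher than in the PE library. The most abundant glutathione peroxidase and glutathione synthetase stood lower. Gamma-glutamyltransferases and glutathione S-transferases held unigenes far apart in both directions, while the most abundant transferase, the main Cu/Zn and Mn superoxide dismutases, thioredoxin reductases and selenoproteins differed by less than 2-fold.

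Levels are RPKM, reads scaled by the length of the unigene and the size of the library, so they can be set side by side between genes. The log2 ratio is that of (FE RPKM + 1)/(PE RPKM + 1). The call higher or lower in FE was made when this ratio was at least 1 in size and the 95% exact interval of the ratio of reads excluded 1, among unigenes of at least 1 RPKM in a library. Of the 99 members 95 entered, and 31 were higher, 17 lower and 47 neither. Across all 44982 unigenes that entered, 25.7% were higher and 11.1% lower, against 32.6% and 17.9% of the members. The calls of both directions together took in 50.5% of the members and 36.8% of all unigenes. Of the 16690 unigenes with a Nr hit, as all members have, 31.2% were higher and 8.96% lower, 40.2% in all. The counts by role below are to be read beside these shares. The median log2 ratio was 0.23 over the members and 0.36 over all unigenes. Scaling shifted this balance. With a TMM factor, 0.39 on the log2 scale, 27 members were higher and 26 lower, beside 18.3% and 15.6% of all unigenes, and after centring on the median of all unigenes 25 were higher and 25 lower, beside 15.9% and 17.4%.

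**Figure D1:**
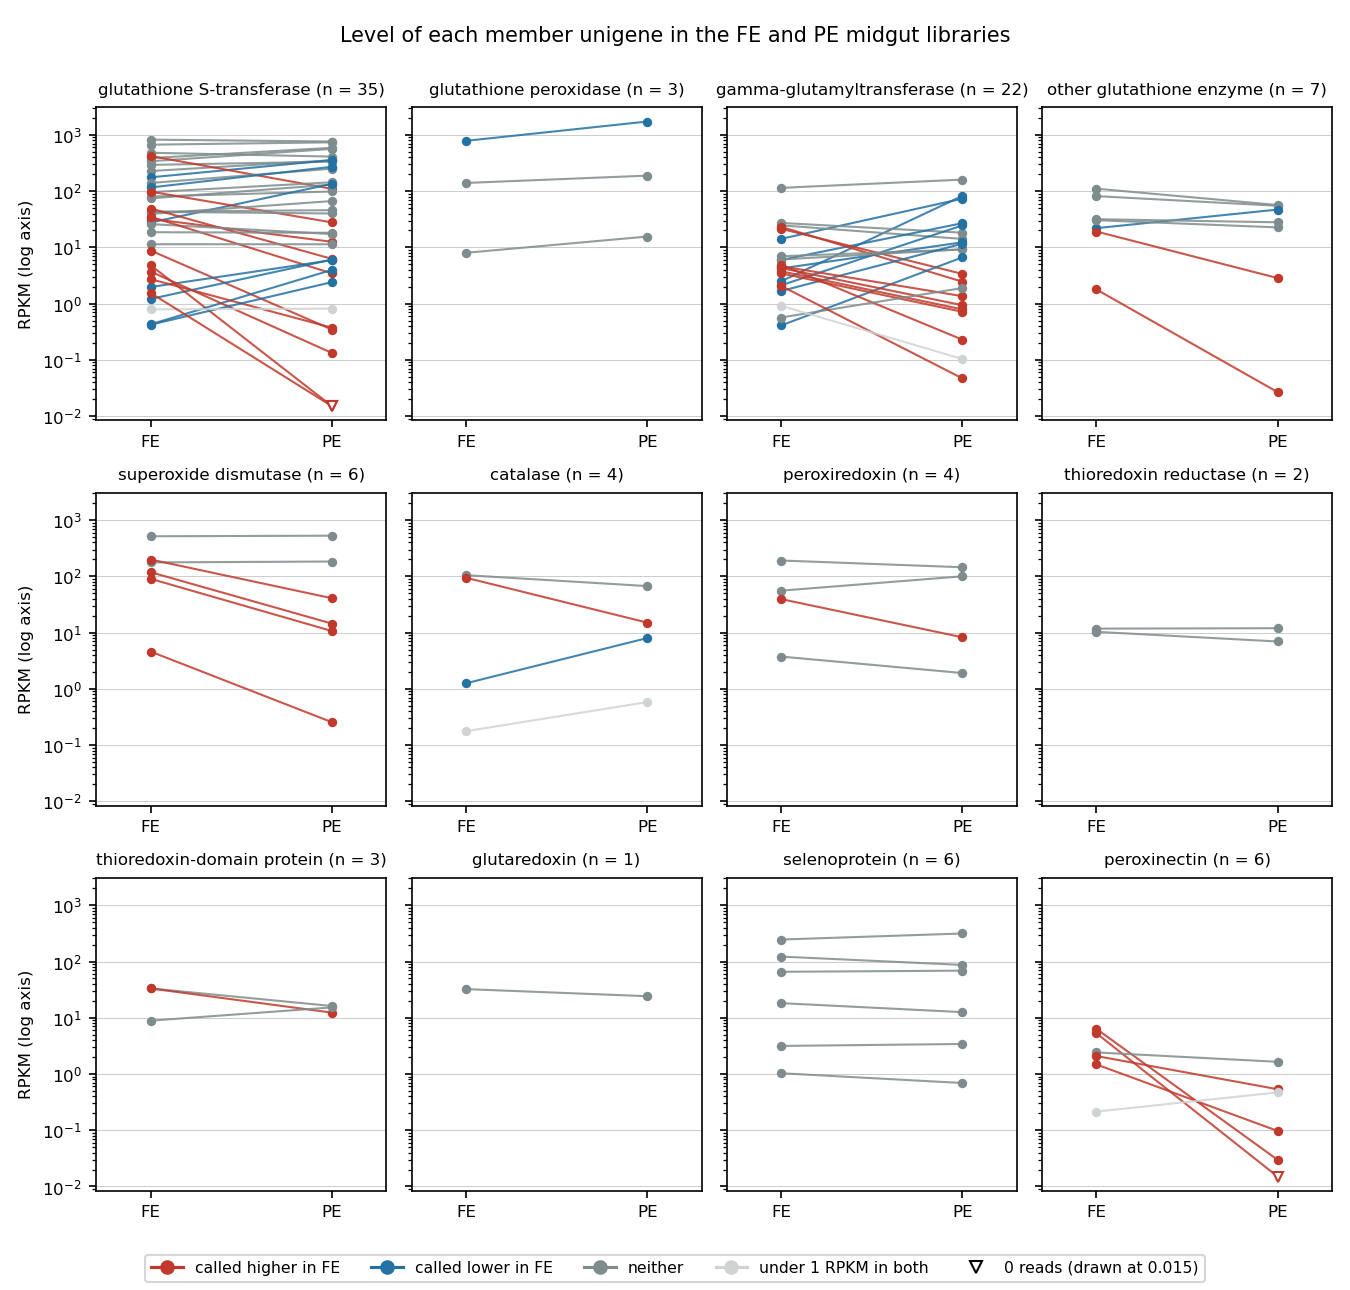
RPKM (log axis) of each of the 99 unigenes in the FE library (left) and the PE library (right), 1 panel per role, with a line joining the values of a unigene and the colour giving its call. The 3 unigenes with 0 reads in PE are drawn as open triangles at 0.015. Lines of the glutathione S-transferases and gamma-glutamyltransferases cross, those of 4 of 6 superoxide dismutases fall toward PE, and those of the selenoproteins are close to level.

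The FE library had 35944321 listed reads and the PE library 43831353, and the members took 0.796% and 0.836% of them. The members were well expressed, with a median of the mean level of 19.4 RPKM, against 1.71 for all unigenes and 4.62 for those with a Nr hit. Of the 22 members that averaged 100 RPKM or more over both libraries, 2 were higher, 3 lower and 17 neither, where 15.7% and 28% of all 1018 unigenes at this level were higher and lower, 43.7% together. The 4 members left out by the filter had at most 0.914 RPKM, and scarce members that entered through 1 library alone had to differ to some extent.

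Markers of other tissues were counted for a dissected organ that can carry them, and their part in the results was not tested. Their counts stand beside 25.7% higher and 11.1% lower of all unigenes. Descriptions of digestive-cell proteases had 6 unigenes higher and 6 lower of 17, with summed levels of 1656 RPKM in FE against 2745 in PE, and 4 of 19 (2 longipains, a legumain and a cathepsin B-like protease) had 0 reads in PE. Muscle markers summed to 3679 RPKM in FE against 4503 in PE, with 8 higher and 5 lower of 59. All 5 lower ones were described as non-muscle myosin, with 229 RPKM in FE against 695 in PE, and without them the sums were 3450 RPKM in FE against 3808 in PE. Salivary descriptions summed to 6313 RPKM in FE against 20219 in PE, with 33 higher and 25 lower of 87, and 6 of 100 (2 lipocalins, 2 secreted peptides, a metalloprotease and a cement protein) had 0 reads in PE. Descriptions of fat body and ovary, mostly hemelipoglycoproteins and vitellogenins, summed to 7242 RPKM in FE against 20045 in PE, with 8 higher and 7 lower of 18. Words chosen for nervous tissue matched 14 syntaxins, 11 synaptotagmins and 4 neurexins. These summed to 456 RPKM in FE against 214 in PE, with 12 higher and 1 lower of 22, and 1 of 29, a neurexin, had 0 reads in PE. They include syntaxin-18 (Contig19712, called higher), a syntaxin-5-like protein (Contig15994) and an extended synaptotagmin (Contig13626), both called neither. Several others were described only as syntaxin. Such names do not restrict a unigene to nerve cells, so the sum and counts do not measure nervous tissue. Hemocyte markers were scarce: the 3 hemocytins were under 1 RPKM in both libraries and clotting factor C had 1.97 RPKM in FE against 0.0245 in PE. The only match for host blood, a hemoglobin beta chain, had 5.36 RPKM in FE against 9.94 in PE. In RNA of a whole organ, fewer cells of a type and less RNA per cell cannot be told apart.

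Most members are named after Ixodes scapularis: 79 of 99 had their best Nr match in this genus, at a median identity of 61.2% over all members. The 99 unigenes matched only 62 different Nr proteins, so several can be copies, variants or pieces of 1 gene. Reads of near-identical copies could have been split between them by the counting, and levels of single unigenes in the large families are uncertain to that extent. For 74 members the UniProt description also matched the same words, and for 16 it was an uncharacterized protein. KOG, a classification by conserved protein groups that did not enter the choice of members, gave the class of protein turnover and chaperones, which holds the glutathione S-transferases, to 37 members, amino acid metabolism to 20 and inorganic ion transport to 10, while 14 had no KOG hit. All 4 catalase unigenes had the KOG group catalase, 5 of 6 superoxide dismutases the Cu/Zn group and 1 the Mn group. A KOG group for gamma-glutamyltransferase was given to 20 of 22 unigenes of that name. Members named below were chosen by a rule on abundance and ratio within each role, while those given as further examples, or for their subtype, description or overlapping alignment, were picked with their values in view.

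Synthesis of glutathione ends with glutathione synthetase, which adds glycine to gamma-glutamylcysteine. Its unigene (Contig2770) had 21.98 RPKM in FE against 47.0 in PE, 2.14-fold lower in FE (95% counting interval 2.03 to 2.26). The call rests close to the limit, since with a pseudocount of 5 RPKM the log2 ratio was -0.95. The step before it lies outside the members and was listed separately with the supply of cysteine. In that list of 6 unigenes 3 were lower and 1 higher, also with a TMM factor. Of all unigenes 11.1% were lower and 25.7% higher. Both unigenes described as gamma-glutamylcysteine synthetase, the catalytic enzyme of the first step, were lower: Contig11372 had 20.8 RPKM in FE against 48.2 in PE, and Contig7863 had 28.6 in FE against 60.3 in PE. They were 2.32-fold (2.17 to 2.47) and 2.11-fold (2.00 to 2.23) lower in FE. The regulatory subunit of the first enzyme (Contig14052) had 20.0 RPKM in FE against 19.3 in PE. Cystathionine gamma-lyase, which releases cysteine, was 2.14-fold lower in FE in Contig15806 (2.04 to 2.24), whereas First_Contig3106 of the same description had 116 RPKM in FE against 76.5 in PE and was called neither. Cystathionine beta-synthase (Contig3869) was the unigene called higher, at 3.17 RPKM in FE against 0.458 in PE. It entered through FE alone, so the filter in part fixed its direction.

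Glutathione peroxidases reduce hydrogen peroxide and lipid peroxides with glutathione. All 3 had lower RPKM in FE, and 1 passed the rule, or 2 with a TMM factor. The most abundant (Contig674), whose UniProt match is a glutathione peroxidase of Haemaphysalis longicornis at 83.5% identity, had the highest PE level of all members. It had 785 RPKM in FE against 1730 in PE, 2.20-fold lower in FE (2.17 to 2.24). The phospholipid hydroperoxide type (Contig669) had 140 RPKM in FE against 189 in PE, 1.35-fold lower (1.32 to 1.38) and called neither. A second unigene of that type (Contig16962), a further example, had 8.01 RPKM in FE against 15.6 in PE and was called lower only after scaling by the TMM factor or the median. Summed over the 3 unigenes the level was 933 RPKM in FE against 1934 in PE.

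Gamma-glutamyltransferases sit on the outer cell surface, where they cut the gamma-glutamyl bond of glutathione. In FE 8 of the 22 stood higher, 7 lower and 6 neither, and 1 was under the filter. Of the 21 that entered 38.1% were higher and 33.3% lower, beside 25.7% and 11.1% of all unigenes. A TMM factor gave 7 higher and 8 lower, and with 1 unigene per protein, which leaves 7, 3 were higher and 1 lower. This family held the lowest ratio of all members. Contig33014 had 32 reads (2.50 RPKM) in FE against 1283 reads (82.4 RPKM) in PE, 33.0-fold lower in FE (23.2 to 48.4). Contig32179, Contig1285 and Contig29256 were 16.2-fold (9.84 to 28.8), 11.6-fold (8.70 to 15.8) and 6.94-fold (4.57 to 11.0) lower in FE. Contig33014, Contig1285 and Contig29256 matched the same Nr protein with overlaps of at most 1 residue. By their alignments they cannot be told apart from pieces of 1 transcript. Among unigenes of at least 10 RPKM in a library, the highest ratio was that of Contig64, which had 1203 reads (23.2 RPKM) in FE against 155 reads (2.45 RPKM) in PE, 9.44-fold higher in FE (7.98 to 11.2). The scarcer Contig38131, with 145 reads in FE against 4 in PE, was 44.1-fold higher (16.9 to 164). The most abundant unigene (Contig1841) lay between these, with 114 RPKM in FE against 160 in PE. In FE the 8 higher unigenes had between 2.06 and 23.2 RPKM, and in PE between 0.0468 and 3.37. The 7 lower ones had between 0.410 and 14.2 RPKM in FE, and between 6.65 and 82.4 in PE. The median PE level of the 8 higher unigenes was 0.863 RPKM. Unigenes under 1 RPKM in 1 library entered through the other alone, so the filter in part fixed their direction. The family's summed level was 280 RPKM in FE against 461 in PE. A member of the group by its words only, a protein-glutamine gamma-glutamyltransferase (Contig11630), is a transglutaminase, which links proteins and does not act on glutathione; it had 6.96 RPKM in FE against 9.19 in PE.

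The opposite calls lay on the same stretches of protein. Of the 22 unigenes 15 had the same best Nr hit, a gamma-glutamyltransferase of Ixodes scapularis of 527 amino acids, at 36.3% to 71.6% identity. Among these 15, 5 were higher, 7 lower and 3 neither. Of the 70 pairs whose alignments shared at least 30 residues of this protein, 26 paired a unigene called higher with one called lower, 10 paired 2 higher ones and 8 paired 2 lower ones. Contig64, higher in FE, and Contig1285, lower in FE, both covered residues 11 to 146. Contig38131, at 2.06 RPKM in FE against 0.0468 in PE, and Contig32179, at 0.410 RPKM in FE against 6.65 in PE, both covered residues 42 to 344. Contig38131 entered through FE alone and Contig32179 through PE alone. The filter thus in part fixed their opposite directions, and such pairs are among the 26. No unigene sequences were compared, and whether such pairs are gene copies, alleles, splice forms or assembly products was not tested.

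**Figure D2:**
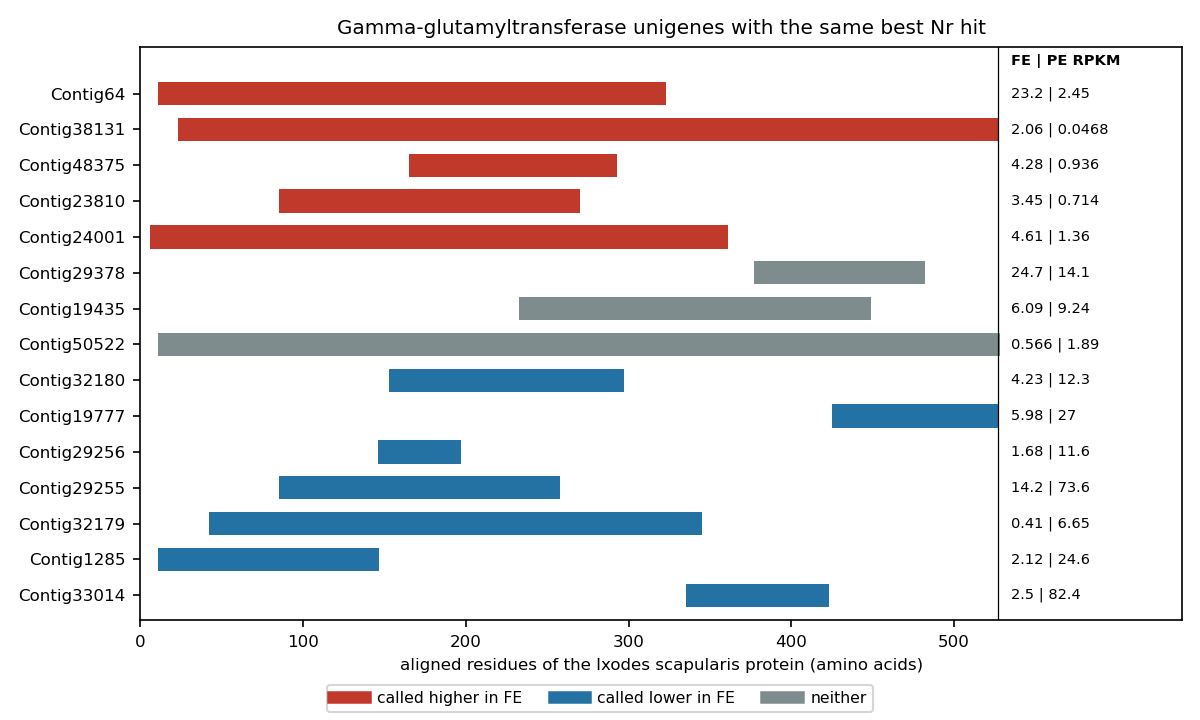
Stretch of the Ixodes scapularis gamma-glutamyltransferase (527 amino acids, vertical line at its end) covered by each of the 15 unigenes that match it best, sorted by FE over PE ratio with the highest at the top and the FE and PE RPKM at the right. Unigenes called higher in FE (5, red) and lower in FE (7, blue) cover overlapping parts of the protein.

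Glutathione S-transferases join glutathione to electrophiles, lipid peroxidation products and xenobiotics, and were the largest group, with 35 unigenes. Of the 34 that entered, 10 were higher in FE, 7 lower and 17 neither, and with a TMM factor 9 were higher and 12 lower. The first counts are 29.4% higher and 20.6% lower, beside 25.7% and 11.1% of all unigenes. The share higher is thus near that of all unigenes. The most abundant (Contig71), which matches a Haemaphysalis longicornis enzyme at 93.7% identity, had 824 RPKM in FE against 763 in PE, a ratio of 1.08 (1.06 to 1.10). The 17 unigenes called neither lay between 11.4 and 824 RPKM in FE, and between 11.4 and 763 in PE. Over the whole family the summed level was 4779 RPKM in FE against 5522 in PE.

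The transferases that differed most were of lower abundance. Contig14844 had 731 reads (8.78 RPKM) in FE against 35 reads (0.346 RPKM) in PE, 25.4-fold higher in FE (18.1 to 36.8). Contig13948 had 35.0 RPKM in FE against 3.45 in PE, 10.1-fold higher (7.99 to 13.0). In the other direction, among transferases of at least 10 RPKM in a library, the lowest ratio was that of Contig11634. It had 27.7 RPKM in FE against 135 in PE, 4.86-fold lower in FE (4.42 to 5.35). Scarcer unigenes lay further out, with First_Contig781 9.26-fold lower and Contig52641 28.0-fold higher in FE, but each entered through 1 library alone. As further examples, Contig35 was an abundant unigene called higher, with 421 RPKM in FE against 110 in PE, 3.84-fold (3.73 to 3.96). Contig33682 had 69 reads in FE against 0 in PE. It was at least 27.98-fold higher against a floor of 3 reads in PE, where the 95% exact interval starts at 22.1. Contig14844 and Contig33682 entered through FE alone, so the filter in part fixed their direction. The abundant Contig9894, at 116 RPKM in FE against 272 in PE, was 2.33-fold lower (2.21 to 2.46), and Contig2383, at 176 RPKM in FE against 357 in PE, passed the lower limit narrowly with a log2 ratio of -1.01.

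Subtypes of transferase could be told only where a description named them. In UniProt, for example, the abundant Contig1272 is a putative mu 2 type. It had 670 RPKM in FE against 738 in PE and was called neither. The microsomal type, a membrane protein, had 3 unigenes among the members. Contig5328 had 228 RPKM in FE against 355 in PE, and Contig2579 had 96.0 in FE against 144 in PE. Contig56125 had 35 reads in FE against 0 in PE. The abundant pair was called neither, although Contig5328 was called lower with a TMM factor. The scarce Contig56125 was higher, at least 14.2-fold against the floor, where the exact interval starts at 10.9. It too entered through FE alone. The kappa type (Contig16068), a mitochondrial and peroxisomal form in mammals, had 43.2 RPKM in FE against 45.9 in PE. As in the gamma-glutamyltransferases, unigenes matching 1 protein could differ. Contig2996 (49.1 RPKM in FE against 6.25 in PE) and Contig11634 aligned with the same Ixodes protein over residues 27 to 159 and were called in opposite directions, as were Contig52641 (3.70 RPKM in FE against 0.132 in PE) and Contig66132 (1.21 in FE against 6.08 in PE) over residues 16 to 164 of another. These were 2 of 24 overlapping pairs in the family, and Contig52641 entered through FE alone.

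Other enzymes that use glutathione numbered 7, of which 2 were higher and 1, the synthetase above, lower, with the same counts under a TMM factor. Lactoylglutathione lyase (Contig2004), which with hydroxyacylglutathione hydrolase clears methylglyoxal, had 111 RPKM in FE against 56.7 in PE, a ratio of 1.95 (1.88 to 2.02) just short of the rule. The hydrolase unigenes Contig28479 and First_Contig1367 had 31.8 and 30.5 RPKM in FE against 27.9 and 22.7 in PE. Glutathione-dependent formaldehyde dehydrogenase, a class III alcohol dehydrogenase, had 3 unigenes. Contig20765 had 19.2 RPKM in FE against 2.85 in PE, 6.73-fold higher in FE (5.46 to 8.37). The others are given as further examples. Contig17546 had 55 reads in FE against 1 in PE (ratio 66.9, 11.5 to 2690). It entered through FE alone, so the filter in part fixed its direction. The more abundant Contig2091 was called neither, at 81.6 RPKM in FE against 54.9 in PE.

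**Figure D3:**
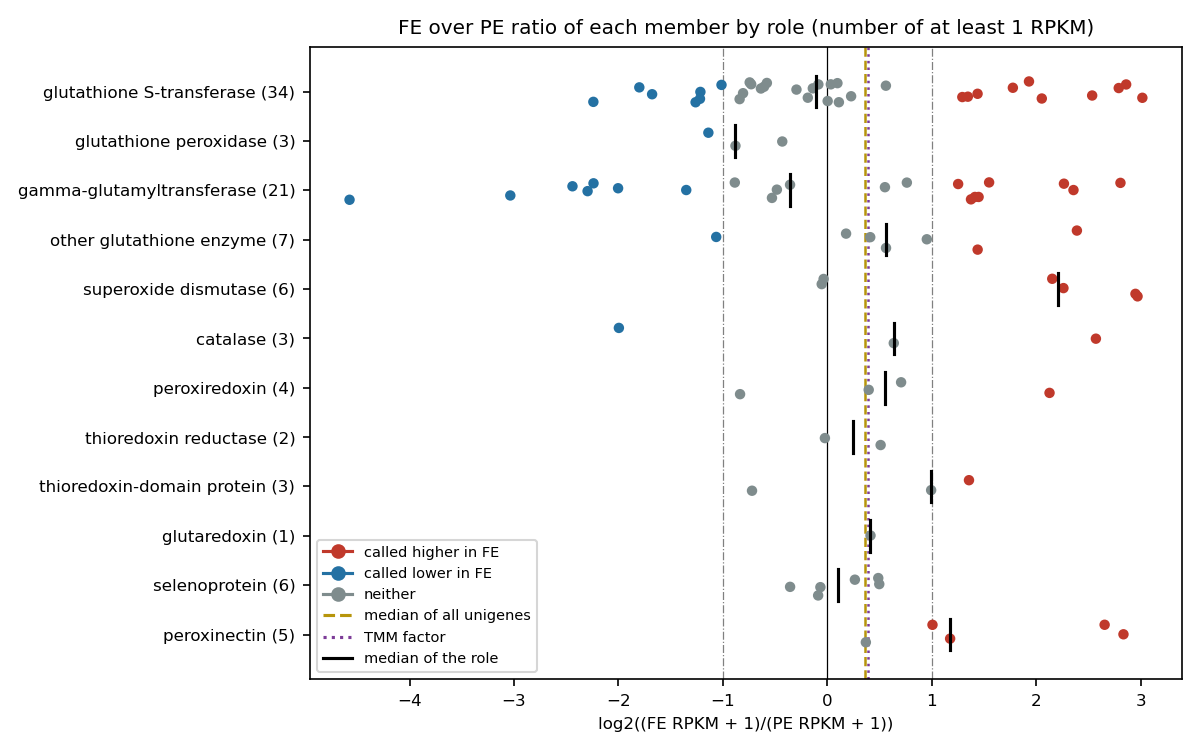
Log2 ratio of FE over PE for each of the 95 members of at least 1 RPKM (points, coloured by call), by role, with the median of the role as a black bar. The dashed and dotted lines mark the median of all unigenes (0.36) and the TMM factor (0.39), and the grey lines the limits of -1 and 1. Superoxide dismutases fall into 2 unigenes near 0 and 4 above 2, and the spread is widest in the gamma-glutamyltransferases.

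Superoxide dismutases turn superoxide into hydrogen peroxide. In FE 4 of 6 unigenes were higher and 0 lower, also with a TMM factor and after centring. Among all unigenes 25.7% were higher and 11.1% lower. The most abundant, a Cu/Zn enzyme (Contig682), had 516 RPKM in FE against 529 in PE, a ratio of 0.976 (0.9505 to 1.002). The Mn enzyme of mitochondria (Contig43) had 177 RPKM in FE against 184 in PE. In plain RPKM these 2 were level between the libraries. With a TMM factor their log2 ratios were -0.43 and -0.44, also called neither. The 4 others were all described as Cu/Zn enzymes or had the Cu/Zn KOG group. Contig18746 had 90.3 RPKM in FE against 10.6 in PE, 8.48-fold higher in FE (7.24 to 9.99). Also higher, as further examples, were Contig6176, with 118 RPKM in FE against 14.4 in PE (8.20-fold, 7.48 to 8.99), Contig1333, with 199 in FE against 40.8 in PE (4.89-fold, 4.67 to 5.11), and the scarce Contig39429, with 4.58 in FE against 0.255 in PE (17.98-fold, 10.5 to 33.5). Contig39429 entered through FE alone, so the filter in part fixed its direction. Contig6176 and Contig18746 matched 1 Ixodes protein over residues 2 to 136 and 157 to 200, without overlap. These 2 cannot be told apart from pieces of 1 transcript. Summed, the family read 1105 RPKM in FE against 778 in PE.

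Catalase splits hydrogen peroxide without a thiol. Of 4 unigenes 1 was higher, 1 lower, 1 neither and 1 under the filter. Contig2261 had 5962 reads (94.4 RPKM) in FE against 1156 reads (15.1 RPKM) in PE, 6.27-fold higher in FE (5.89 to 6.69). The most abundant by mean level (Contig61912) had 105 RPKM in FE against 67.1 in PE, 1.56-fold higher (1.45 to 1.68) and called neither. Contig25685 was scarce and went the other way, with 16 reads in FE against 124 in PE, 6.37-fold lower in FE (3.77 to 11.5). The summed level was 201 RPKM in FE against 90.8 in PE.

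Peroxiredoxins reduce peroxides with electrons from thioredoxin, or in the peroxiredoxin-6 type from glutathione in mammals. Of 4 unigenes 1 was higher and none lower, or 1 and 1 with a TMM factor. The most abundant, described as peroxiredoxin-4-like (First_Contig151), had 191 RPKM in FE against 145 in PE, a ratio of 1.32 (1.28 to 1.36). The peroxiredoxin-6-like Contig1749, which matches a peroxiredoxin of Haemaphysalis longicornis at 97.8% identity, had 55.7 RPKM in FE against 100.2 in PE, 1.798-fold lower in FE (1.75 to 1.85), a difference called lower only after scaling. Contig1597 had 39.4 RPKM in FE against 8.24 in PE, 4.78-fold higher (4.51 to 5.07). Its Nr match covers residues 113 to 428 of a 457-residue protein at 51.9% identity, its KOG group is that of alkyl hydroperoxide reductases, and its UniProt match is an uncharacterized protein.

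Thioredoxin reductase, which recharges thioredoxin with NADPH, had 11.8 RPKM in FE against 11.96 in PE (Contig20872) and 10.3 in FE against 6.94 in PE (Contig10897). Neither unigene was called. The name is that of their Nr matches. In UniProt Contig20872 is a putative pyridine nucleotide-disulfide oxidoreductase and Contig10897 an uncharacterized protein. KOG gave the thioredoxin reductase group to only 1 of them. Of 3 proteins with a thioredoxin domain, the 2 most abundant lay on either side of the limit: Contig748 had 33.2 RPKM in FE against 16.2 in PE (log2 ratio 0.99) and the DnaJ and thioredoxin-containing Contig12302 had 33.2 in FE against 12.4 in PE (1.36), a call lost with a TMM factor. Contig5425, thioredoxin domain-containing protein 9, had 8.89 RPKM in FE against 15.3 in PE and was called lower only after scaling. The glutaredoxin unigene (Contig20192), which uses glutathione to reduce protein disulfides, had 32.4 RPKM in FE against 24.2 in PE, a ratio of 1.34 (1.19 to 1.51).

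Selenoproteins carry selenocysteine, and several are redox enzymes of the endoplasmic reticulum. None of 6 was called in either direction, also with a TMM factor, and their ratios ran from 0.780 to 1.49. Selenoprotein M (Contig711) was the most abundant, at 246 RPKM in FE against 315 in PE. Contig1615, described as selenoprotein O, had 18.2 RPKM in FE against 12.6 in PE, but this unigene of 8063 nucleotides has an enhancer of polycomb protein as its UniProt match, so its reads may not measure a selenoprotein. A list of 9 unigenes held the machinery that inserts selenocysteine, and also selenocysteine lyases (Contig6681 and Contig6682, called neither). In this list 1 was higher, 1 lower and 7 neither. The higher one was the selenocysteine-specific elongation factor (Contig26934), at 25.9 RPKM in FE against 7.72 in PE, 3.36-fold (3.07 to 3.68). A selenophosphate synthase unigene (Contig22739) had 0 reads in FE against 480 (23.1 RPKM) in PE. It was at least 131.5-fold lower in FE against a floor of 3 reads, with an exact FE over PE ratio of up to 0.00938. Contig22739 entered through PE alone, so the filter in part fixed its direction. In contrast, First_Contig642 and Contig10668 of the same description had 81.4 and 74.8 RPKM in FE against 91.0 and 73.9 in PE.

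Peroxinectins are peroxidases first described in crustacean blood cells, where they also act in cell adhesion. All 6 unigenes were scarce, with at most 6.35 RPKM in a library. In FE 4 of the 6 were called higher, 3 with a TMM factor and 2 after centring, but each of these had at most 0.536 RPKM in PE and entered through its FE level alone, so the filter in part fixed the direction. Contig21172 had 351 reads in FE against 2 in PE (6.35 and 0.0297 RPKM), a ratio of 213 (58.7 to 1770). First_Contig1260 had 202 reads in FE against 0 in PE, at least 81.9-fold higher against the floor of 3 reads, where the exact interval starts at 66.0. Scarcer further examples were Contig31216, with 25 reads in FE against 2 in PE, and Contig38888, with 144 in FE against 45 in PE, a call lost with a TMM factor. The remaining one that entered, Contig37329, described in UniProt as a chorion peroxidase-like protein, had 2.42 RPKM in FE against 1.65 in PE. The 3 hemocytins, markers of tick blood cells, were too scarce to enter, with 0.536 to 0.730 RPKM in FE, while PE had 0.106 to 0.300, and their part in the peroxinectin difference was not tested.

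**Figure D4:**
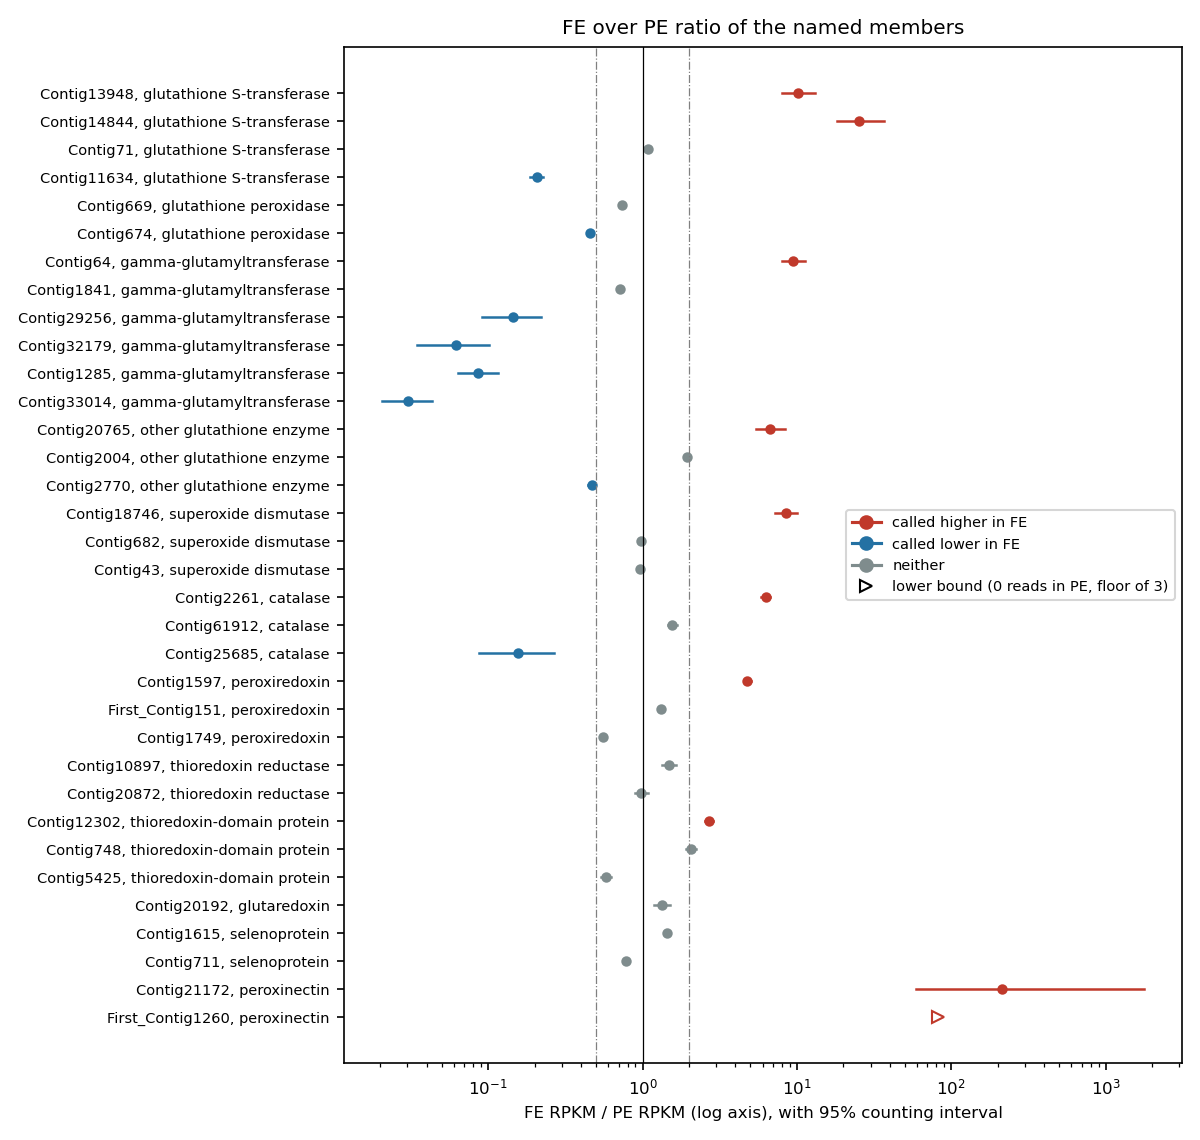
Ratio of FE over PE RPKM (log axis) of the 34 named members with the 95% exact counting interval, grouped by role. Red points were called higher in FE, blue lower and grey neither, the grey lines mark 0.5 and 2, and the triangle is a lower bound for a unigene with 0 reads in PE. Ratios ran from 0.0303 for the gamma-glutamyltransferase Contig33014 to 213 for the peroxinectin Contig21172.

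Enzymes around these pathways were listed by description, outside the members. Their counts too stand beside 25.7% higher and 11.1% lower of all unigenes. Dual oxidases and NADPH oxidases make superoxide and hydrogen peroxide at membranes. Of 17 unigenes listed by these words 8 were called higher in FE, also with a TMM factor, 2 neither, and 7 were too scarce to enter. The list includes unigenes described as dual oxidase maturation factors and not as oxidases. These were Contig5763, called neither, and Contig62781 and Contig69993, which did not enter. Of the 8, 7 were described as dual oxidase, with 11.5 to 24.4 RPKM in FE, while PE had 0.193 to 0.962, and ratios of 20.5 to 92.0. The remaining one, NADPH oxidase 5 (Contig9725), had 25.8 RPKM in FE against 8.41 in PE, 3.07-fold (2.89 to 3.26). The 7 higher dual oxidases were under 1 RPKM in PE and entered through their FE level alone. Those left out by the filter had under 1 RPKM in both libraries, and 2 of them had fewer FE than PE RPKM. The similar FE levels of the 7 dual oxidase unigenes, each 1267 nucleotides or shorter, do not show how many genes they stand for.

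The enzymes that supply NADPH, the electron source of glutathione and thioredoxin reductases, did not pass the rule in any of 4 unigenes. Glucose 6-phosphate dehydrogenase had 41.3 and 36.0 RPKM in FE against 28.5 and 23.6 in PE, and NADP-dependent isocitrate dehydrogenase had 174 and 102 in FE against 295 and 122 in PE. The difference of the isocitrate dehydrogenase Contig9881 was called lower with a TMM factor. Sulfiredoxin, which repairs over-oxidised peroxiredoxin, was higher in FE in 1 of 2 unigenes, Contig5374, at 42.2 RPKM in FE against 15.3 in PE (2.76-fold, 2.57 to 2.98). Methionine sulfoxide reductase (Contig3474) had 162 RPKM in FE against 95.2 in PE, a ratio of 1.70, and was called neither. Of 6 other peroxidases 2 entered. First_Contig1728 was higher, with 297 reads in FE against 3 in PE (ratio 120, 40.8 to 587). It entered through FE alone, so the filter in part fixed its direction. Contig62795, which entered through PE alone, had 0.399 RPKM in FE against 1.23 in PE and was called neither. A ferritin (Contig3682), which stores iron, had 127 RPKM in FE against 193 in PE.

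**Figure D5:**
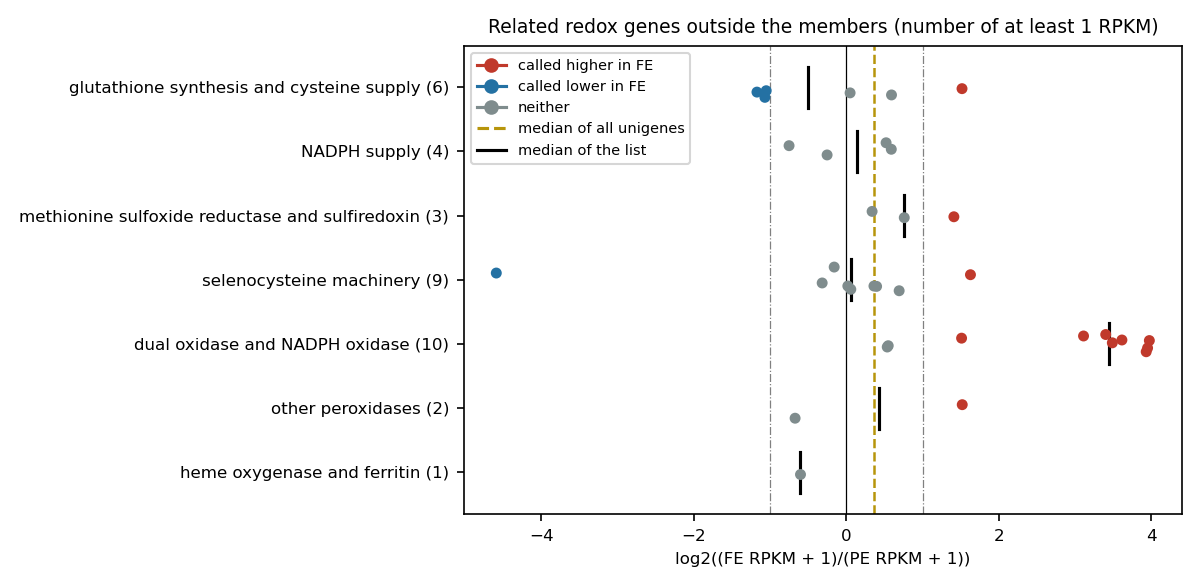
Log2 ratio of FE over PE of redox genes listed outside the 99 members (points, coloured by call), by list, with the list's median as a black bar and the median of all unigenes (0.36) as a dashed line. The list of dual and NADPH oxidases, a maturation factor among them, has 10 unigenes of at least 1 RPKM in a library. Of these 8 lie above 1.5, 7 of which entered through FE alone. In glutathione synthesis and cysteine supply 3 of 6 unigenes lie below -1.

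The authors' deposited table gave a false discovery rate for each unigene from a test of the 2 libraries that is not named in the sources used here. Of the 99 members 33 had a rate under 0.05 in the authors' deposited table, against 7.98% of all listed unigenes and 11.6% of those of at least 1 RPKM. The members are more abundant than most unigenes, and shares at matched abundance were not compared. Of the 48 members called by the 2-fold rule 23 had a rate under 0.05 in the authors' deposited table. The glutathione peroxidase Contig674 (1.51e-67), the superoxide dismutase Contig1333 (3.53e-26) and the catalase Contig2261 (4.81e-14) were among them in the authors' deposited table, and glutathione synthetase Contig2770 was just under the limit at 0.04998. The peroxinectin Contig21172, with 2 reads in PE, had a rate of 0.289 in the authors' deposited table. That test compares 2 libraries and not 2 groups of ticks.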

How the data were processed

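Polyadenylated RNA of Haemaphysalis flava midguts was sequenced from TruSeq libraries, per the labels' protocols, and base calling used CASAVA 1.8, per the submitters' processing notes. No genome was used, and the sources used here do not name the assembler, aligner or counter. The authors deposited read counts per unigene (whole numbers, not normalized) and RPKM values, per the file headers. The RPKM values imply library totals of 41432770 reads in FE and 50397332 in PE, of which the listed counts make up 86.8% and 87.0%, so intervals used these totals. The authors also deposited the ratio of PE over FE RPKM with 0 replaced by 0.00001, p-values and false discovery rates. Identity in percent of Nr and UniProt matches, and KOG hits with a score, were deposited by the authors. The best-scoring KOG hit was taken.

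Members were matched on the Nr description without the bracketed organism, or on UniProt where Nr had none, and all 99 came from Nr. A further 17 unigenes with matching Nr descriptions lie outside the expression table and were not analysed here. Members, lists and rules were chosen with earlier results of these data known. Roles were assigned by words, first match. Gamma-glutamyltransferases, planned within the other glutathione enzymes, are given apart, and thioredoxin-dependent peroxide reductase was put with the peroxiredoxins. The marker word factor C was narrowed to clotting factor C after it was seen to match replication factor C. Named members were, per role, the most abundant by mean RPKM and those of highest and lowest ratio at 10 RPKM or more in a library, and over all members the 5 highest and 5 lowest ratios, and those with 0 reads in a library, at 5 RPKM or more.

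No test was run, since there is 1 library per state. A call needed a log2 ratio, with a pseudocount of 1 RPKM, of at least 1 in size and a 95% exact interval of the read ratio that excludes 1 (a Clopper-Pearson interval of the FE share of reads, turned into a ratio), at 1 RPKM or more in a library. A pseudocount understates the ratio of low unigenes; printed folds are RPKM ratios without it. Intervals and floors (3 reads in the library) cover counting error only, since each state has 1 library. Reads were not marked with molecular identifiers, as far as the sources used here say, and the intervals take each read as a separate count. The TMM factor came from edgeR 4.0.16 in R 4.3.3, the rest from Python 3.11.15, pandas 2.3.3 and scipy 1.17.1. The calling rule was tested on simulated data. Alternatives were other pseudocounts, filters, scalings, a higher threshold, longer unigenes, 1 unigene per protein and other uses of the descriptions. One list of regulators is not reported here.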

Additional observations from a re-analysis of the deposited data

How the results depend on the processing

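The 31 members higher and 17 lower in FE depended on the settings. Of 95 members, a pseudocount of 5 RPKM gave 17 higher and 10 lower, and a threshold of 1.5 on the log2 scale 20 and 10. Taking 1 unigene per protein left 60 members, with 17 higher and 8 lower. A filter at 5 RPKM left 74 members, 17 higher and 15 lower, with a median log2 ratio of -0.03. Shares of all unigenes were not computed under these settings. With a TMM factor 26 were lower and the median log2 ratio was -0.16, below 0; the cause lies in the factor itself, which is subtracted from the ratios. By role the TMM factor gave 12 lower glutathione S-transferases, 2 lower glutathione peroxidases, 1 lower peroxiredoxin and, among thioredoxin-domain proteins, 0 higher and 1 lower. With 1 unigene per protein, which leaves fewer members, 4 transferases were higher and 4 lower, 3 gamma-glutamyltransferases were higher and 1 lower, and 0 other glutathione enzymes were higher. The remaining counts by role stayed within 1.5 times under these 2 settings. Both counts over all members stayed within 1.5 times with a pseudocount of 0.1 RPKM, no filter, centring, unigenes of at least 500 nucleotides and Nr descriptions only. They did so too in 3 uses of the descriptions chosen after seeing the data. A match in Nr or UniProt gave 37 higher and 22 lower of 117, and a match in both 22 and 15 of 71. Leaving out descriptions of another kind of protein gave 30 and 17 of 91. Of the 34 named members 31 kept their call with a TMM factor and 33 with a pseudocount of 5 RPKM, and no call turned round. No paired analysis was possible because each state has 1 library, which also left no replicate to leave out. Unigenes with few reads, such as the peroxinectins, carry wide intervals.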

Other observations

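The word rule on Nr descriptions passed over 23 unigenes whose UniProt description alone matched the words. Of these 22 entered, with 6 higher in FE and 5 lower, beside 25.7% and 11.1% of all unigenes. The lower ones include Contig29593 and Contig30094, protein disulfide isomerases in Nr and thioredoxin/protein disulfide isomerases in UniProt. Others of that UniProt description were called neither or did not enter. The unigenes named here and below were chosen after their values were seen. Contig2370, described in Nr as an alkyl hydroperoxide reductase and in UniProt as a thioredoxin peroxidase, another name for peroxiredoxin, had 679 RPKM in FE against 124 in PE, 5.48-fold higher in FE (95% counting interval 5.32 to 5.65). This level is above that of each of the 4 peroxiredoxin members in FE. Contig10896, a catalase by UniProt, had 98.9 RPKM in FE against 9.92 in PE, 9.97-fold higher (8.65 to 11.5), and Contig42536, also a catalase, had 17.5 in FE against 3.72 in PE. The remaining catalase by UniProt, Contig38447, had 2.03 RPKM in FE against 0.736 in PE and was called neither.

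The selenoprotein T unigenes found in this way were both lower in FE, unlike the 6 selenoprotein members, none of which was called. Contig3600 had 60.5 RPKM in FE against 139.7 in PE, and Contig20457 had 39.0 in FE against 79.8 in PE. Among 2 glutaredoxin-related unigenes, Contig17221 was 2.73-fold higher in FE (2.38 to 3.14) and Contig268, at 146 RPKM in FE against 64.4 in PE, was 2.27-fold higher (2.16 to 2.39), and was called neither with a TMM factor. Further gamma-glutamyltransferase unigenes again went opposite ways. Contig1286 had 8.36 RPKM in FE against 36.7 in PE, and Contig38130 had 43 reads in FE against 1 in PE. Contig38130 entered through FE alone, so the filter in part fixed its direction.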
